A study of Mus musculus with 46 samples.

Results

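Falcor, listed as 9030622O22Rik, and the forkhead genes Foxa1, Foxa2 and Foxa3 were followed through every library of a study of the long noncoding RNA Falcor. These 4 genes were taken by name and were found in each of the 4 deposited tables, among 54346 rows that the tables share. RNA had been sequenced from 46 libraries, 19 of mouse liver and 27 of AML12 cells, an established line of mouse hepatocytes. In the first experiment AML12 lines carried an inducible control hairpin (shCtrl) or a hairpin titled shLinc, which is read as directed at Falcor because the labels list it under a tag named for shFalcor. Each line gave 3 libraries untreated, 3 under doxycycline, the inducer of the hairpin, and 3 in the state that the labels call restored. In the second experiment AML12 cells carried a conventional hairpin against a control, Falcor or ZC3H11A (3 libraries each). Liver came from control and Falcor knockout mice, 4 and 4 on the diet labelled NCD and 5 and 6 on the diet labelled HFD. The sources used here give neither the strain, sex or age of the mice, nor the deleted interval, the hairpin sequences, the doxycycline dose or whether a line is 1 clone. Nor do they tell if the libraries of a group are from different cultures or mice. The p-values therefore reflect the spread of these libraries alone, and that spread may be technical.

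FOXA proteins are forkhead transcription factors that bind nucleosomal DNA and open chromatin at liver enhancers, where they act beside factors such as HNF4A, HNF1 and C/EBP. Foxa1 and Foxa2 are needed together for liver specification in the embryo, and Foxa3 is expressed later, from hepatic differentiation onwards. Foxa2 is also known in adult liver for its part in bile acid and fasting metabolism. Falcor is a long noncoding RNA gene beside Foxa2, and its name in the literature refers to that neighbourhood.

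On the mm10 build, Falcor (ENSMUSG00000086141.7) spans chromosome 2 from 147944740 to 148040203 on the minus strand, with 3 annotated transcripts and 12 merged exons that total 1682 bp. Foxa2 (ENSMUSG00000037025.11) lies at 148042877 to 148046969 on the same strand. A gap of 2673 bp without an annotated gene separates the Foxa2 end from the Falcor start, so transcription of Foxa2 runs towards Falcor. Foxa1 (ENSMUSG00000035451.7) lies on chromosome 12 at 57540628 to 57546916 and Foxa3 (ENSMUSG00000040891.6) on chromosome 7 at 19013284 to 19023538, both on the minus strand. No other annotated gene overlaps these 4, and the libraries were strand-specific, per the labels.

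**Figure D1:**
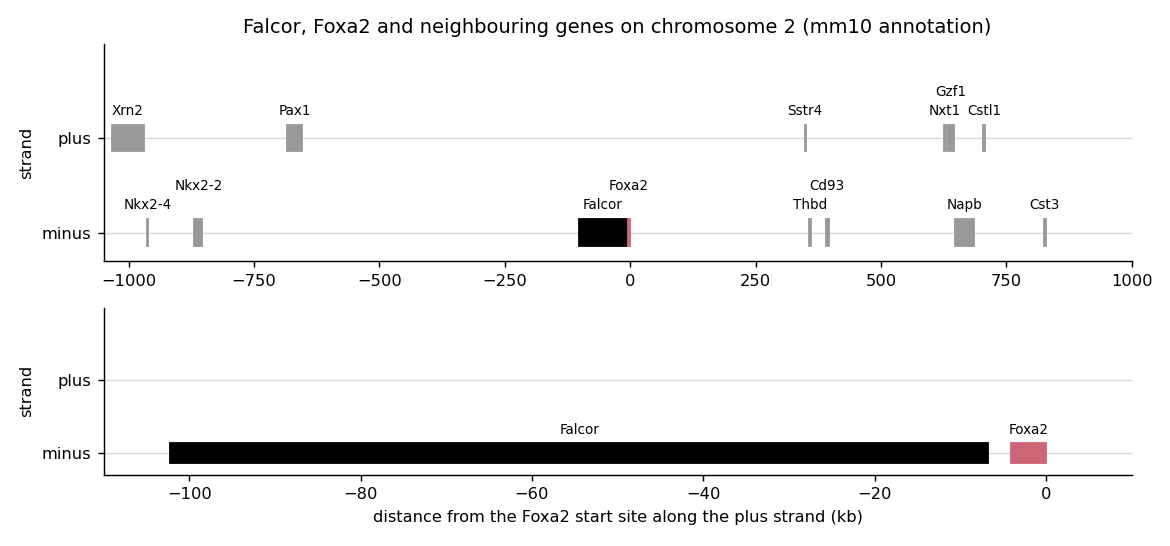
Position of Falcor (black), Foxa2 (red) and neighbouring protein-coding genes (grey) by strand, as distance in kb from the Foxa2 start site, over 1000 kb to each side (top) and close to both genes (bottom). Falcor and Foxa2 lie on the minus strand with no annotated gene between them.

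The start regions of the 4 genes are shown because Falcor and Foxa2 are neighbours and because forkhead proteins bind short motifs that can be looked for there. Each line holds 250 bases before to 50 bases after a RefSeq transcript start (GRCm38.p6, the same coordinates as mm10), written 5′ to 3′ on the gene's own strand, with motif matches in capitals. Falcor has 26 such windows in the table, of which the one closest to the annotated gene start was taken. It belongs to a RefSeq start at base 148040348, upstream of the annotated start at 148040203. The whole Falcor window therefore lies before the annotated gene. Match positions given below are counted from the RefSeq starts. The Foxa1 window belongs to a RefSeq start at base 57546111, inside the annotated gene.
Falcor, chr2:148040299-148040598, minus strand: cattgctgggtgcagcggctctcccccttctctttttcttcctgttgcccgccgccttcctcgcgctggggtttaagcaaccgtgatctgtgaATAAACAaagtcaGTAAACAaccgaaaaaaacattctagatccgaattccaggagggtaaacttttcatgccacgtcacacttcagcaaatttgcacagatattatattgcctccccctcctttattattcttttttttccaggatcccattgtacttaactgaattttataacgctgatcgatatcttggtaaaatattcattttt
Foxa2, chr2:148046920-148047219, minus strand: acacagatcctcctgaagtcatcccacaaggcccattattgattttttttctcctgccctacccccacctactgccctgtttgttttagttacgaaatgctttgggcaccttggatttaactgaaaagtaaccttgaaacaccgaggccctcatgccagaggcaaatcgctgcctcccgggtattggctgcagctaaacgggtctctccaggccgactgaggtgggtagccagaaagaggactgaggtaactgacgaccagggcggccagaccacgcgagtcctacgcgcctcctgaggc
Foxa1, chr12:57546062-57546361, minus strand: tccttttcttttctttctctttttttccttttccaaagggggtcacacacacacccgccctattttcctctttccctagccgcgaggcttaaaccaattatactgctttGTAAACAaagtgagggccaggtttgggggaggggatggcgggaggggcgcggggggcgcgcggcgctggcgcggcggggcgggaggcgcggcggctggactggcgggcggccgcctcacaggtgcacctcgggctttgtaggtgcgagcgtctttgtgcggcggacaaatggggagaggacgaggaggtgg
Foxa3, chr7:19023490-19023789, minus strand: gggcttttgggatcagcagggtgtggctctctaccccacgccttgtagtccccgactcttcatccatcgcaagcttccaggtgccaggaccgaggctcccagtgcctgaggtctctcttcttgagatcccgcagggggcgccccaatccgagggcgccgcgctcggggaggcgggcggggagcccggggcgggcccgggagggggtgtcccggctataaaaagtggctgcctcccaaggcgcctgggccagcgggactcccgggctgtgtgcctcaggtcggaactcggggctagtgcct

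The motif searched on both strands was the forkhead core in 3 forms, the letters TGTTTAC as the first form, then TGTTTAT as a second form and finally TGTTTGC, forms which cannot match at 1 position together. They were chosen after the sequences had been read. The Falcor window holds 2 matches, the reverse complements ATAAACA, starting 157 bases before the start, and GTAAACA, starting 144 bases before it. The Foxa1 window holds 1 match, GTAAACA, starting 141 bases before the start. Neither the Foxa2 nor the Foxa3 window holds one of these 3 forms. The related letters TGTTTGT were not searched, and they stand in the Foxa2 window printed above. Their share over all windows was not counted. The matches therefore do not show that the Foxa2 window lacks a forkhead core. Of 32544 distinct windows of this length, 3.66% hold TGTTTAC, 4.59% hold TGTTTAT, 5.08% hold TGTTTGC and 12.5% hold at least 1 of them. A match is a description of letters, and no binding was measured here.

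The conventional table holds counts, 4474760 to 8837581 per library, and values from it are given as CPM after TMM scaling of library sizes. The other 3 tables hold whole numbers whose columns sum to nearly the same total and whose depth is unknown, and they were used as scores: a deposited value is the number in the table, a scaled value is that number divided by the library's TMM factor, and a log2 change is the difference of log2(scaled value + 1). A fold printed with such a log2 change is taken from it, so it is a ratio of scaled values + 1 and not of the scaled values. Rounding to whole numbers lets replicates share 1 value, which makes the spread of low genes too small. A gene was called at a Benjamini-Hochberg adjusted p below 0.05 over all genes tested. The HFD knockout library named KO-6 stood apart: 3 rows with identical values held 78.2% of its sum, against 22.4 to 56.8% in the other 10 HFD libraries. AML12 carried a mixed set of markers. In the inducible lines, 4 of 8 hepatocyte markers (Asgr1, Cps1, Cyp2e1, Cyp3a11) were at 0 in every library, while 7 biliary markers summed to scaled values of 1104 to 1655, with Epcam and Cftr at 0. All 7 sinusoidal endothelial markers and all 6 lung, gut and pancreas markers were at 0 there, as were 5 of 7 macrophage markers. In both liver tables no hepatocyte marker was at 0 and the 6 lung, gut and pancreas markers were.

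Within the inducible lines Falcor was lowest in the doxycycline-treated Falcor hairpin line, and it was listed at 0 in the knockout livers. In the inducible control line Falcor had deposited values of 4, 6 and 5 untreated, 5, 4 and 5 with doxycycline, and 5, 4 and 5 restored. The Falcor hairpin line had 12, 9 and 10 untreated, 2, 2 and 3 with doxycycline, and 11, 9 and 11 restored. The 2 lines did not overlap in any state, and the hairpin line lay above the control line in 2 states and below it with doxycycline. The Falcor difference between the lines was 0.75 ± 0.14 (log2 change ± SE) untreated, −0.78 ± 0.14 with doxycycline and 0.86 ± 0.14 restored (limma adjusted p = 0.000188, 0.000218 and 6.40e-05). In the hairpin line doxycycline lowered Falcor by 1.59 ± 0.14 on the log2 scale (limma adjusted p = 1.84e-08) and restoration raised it by 1.63 ± 0.14 (limma adjusted p = 1.67e-08). In the control line Falcor changed by −0.06 ± 0.14 with doxycycline (95% confidence interval −0.36 to 0.24).

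With conventional hairpins the Falcor counts were 38, 11 and 24 in controls, 7, 4 and 5 under the Falcor hairpin, and 4, 3 and 6 under the ZC3H11A hairpin. Scaled, these are 3.44 ± 1.29, 0.842 ± 0.295 and 0.770 ± 0.282 CPM (mean ± SD, n = 3 each). Both hairpin groups lay below all 3 controls, by −2.07 ± 0.51 and −2.17 ± 0.52 (log2 change ± SE, edgeR adjusted p = 0.00242 and 0.00226). Falcor (9030622O22Rik) passed the filter on low counts only through its 3 control libraries, which reached the minimum of 1.70 CPM, so these p-values belong to a gene kept by the group where it was high. Without the filter the values were −2.04 and −2.18 (edgeR adjusted p = 0.00220 and 0.00144). The hairpin groups did not differ from each other beyond their error (0.10, 95% confidence interval −1.21 to 1.41). Zc3h11a, the target of the second hairpin and a zinc finger gene of mRNA export, had 558, 375 and 359 counts in controls, 239, 155 and 374 under the Falcor hairpin and 33, 64 and 33 under its own hairpin. It was lower under both, by −0.75 ± 0.24 and −3.03 ± 0.29 (edgeR adjusted p = 0.0243 and 2.03e-05). Its 2 overlapping gene models share the symbol, so those counts can include reads of both. In liver, Falcor had deposited values of 70, 115, 117 and 135 in NCD controls and of 17, 24, 24, 26 and 27 in HFD controls. It was listed at 0 in all 4 NCD and all 6 HFD knockout libraries, so no fold is given.

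Foxa2 moved little in the inducible lines. Deposited Foxa2 values in the control line were 59, 62 and 62 untreated, 54, 50 and 54 with doxycycline, and 63, 63 and 63 restored. The Falcor hairpin line had 61, 63 and 65 untreated, 59, 59 and 60 with doxycycline, and 74, 72 and 76 restored. Deposited values of the lines overlapped untreated and did not overlap in the other states, where the hairpin line was higher. After scaling, Foxa2 was at 57.1 ± 1.42 in the untreated hairpin line against 63.1 ± 1.35 in the untreated control line (mean ± SD, n = 3 each). That difference of −0.14 ± 0.03 passed the test (limma adjusted p = 0.00180), but without rescaling it was 0.05 with an adjusted p of 0.312, so its direction depends on the scaling. With doxycycline Foxa2 was higher in the Falcor hairpin line, by 0.17 ± 0.03 (1.13-fold, limma adjusted p = 0.000474). Restored, the difference was 0.07 ± 0.03 (limma adjusted p = 0.0942), and it passed the test without rescaling (0.23, adjusted p = 8.10e-05). Doxycycline lowered Foxa2 by 0.19 ± 0.03 in the control line (limma adjusted p = 0.000132). In the hairpin line doxycycline gave a Foxa2 change of 0.13 ± 0.03 (limma adjusted p = 0.00336), which turned to −0.08 without rescaling. On restoration after doxycycline Foxa2 rose by 0.24 ± 0.03 in the control line and by 0.14 ± 0.03 in the hairpin line (limma adjusted p = 7.74e-06 and 0.00188), or by 0.25 and 0.31 without rescaling. Restored against untreated it was 0.26 ± 0.03 higher in the hairpin line (1.20-fold, limma adjusted p = 7.41e-06).

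**Figure D2:**
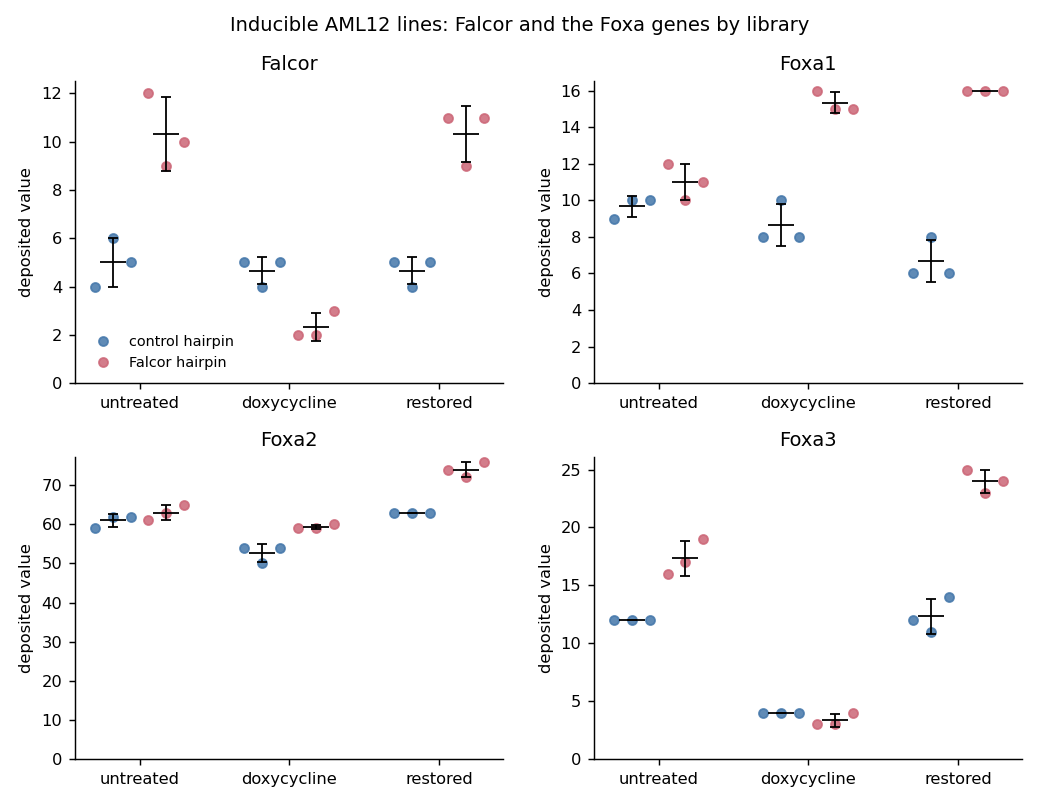
Deposited values (score, whole numbers) of Falcor, Foxa1, Foxa2 and Foxa3 in the inducible AML12 lines, 1 point per library, for the control (blue) and Falcor (red) hairpin in 3 states; bars give mean ± SD (n = 3). Falcor falls with doxycycline in the Falcor hairpin line, Foxa3 falls with doxycycline in both lines, and Foxa1 is higher in the Falcor hairpin line with doxycycline and restored.

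Foxa1 separated the lines once doxycycline had been given. The control line had Foxa1 values of 9, 10 and 10 untreated, 8, 10 and 8 with doxycycline, and 6, 8 and 6 restored. The Falcor hairpin line had 12, 10 and 11 untreated, 16, 15 and 15 with doxycycline, and 16, 16 and 16 restored. The lines met at 10 untreated and did not overlap in the other states, where the hairpin line was higher. The Foxa1 difference was −0.01 ± 0.10 untreated (limma adjusted p = 0.968, 95% confidence interval −0.22 to 0.21) and 0.17 without rescaling. It was 0.77 ± 0.10 with doxycycline (1.71-fold, limma adjusted p = 6.76e-06) and 1.01 ± 0.10 restored (2.02-fold, limma adjusted p = 1.88e-07). Within the hairpin line Foxa1 rose by 0.65 ± 0.10 with doxycycline (limma adjusted p = 1.58e-05) and then changed by −0.11 ± 0.10 on restoration (limma adjusted p = 0.333). Within the control line it changed by −0.13 ± 0.10 with doxycycline (limma adjusted p = 0.261) and fell by 0.35 ± 0.10 on restoration (limma adjusted p = 0.00436). Falcor returned to its untreated range in the restored hairpin line (0.04 ± 0.14 against untreated, limma adjusted p = 0.849), whereas Foxa1 stayed 0.54 ± 0.10 above its untreated level (limma adjusted p = 0.000255). In the restored control line Foxa1 was −0.48 ± 0.10 from its untreated level (limma adjusted p = 0.000716), so the restored difference between the lines holds both a higher hairpin line and a lower control line.

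Doxycycline lowered Foxa3 in both inducible lines. The control line had Foxa3 values of 12, 12 and 12 untreated, 4, 4 and 4 with doxycycline, and 12, 11 and 14 restored. The Falcor hairpin line had 16, 17 and 19 untreated, 3, 3 and 4 with doxycycline, and 25, 23 and 24 restored. No doxycycline library of either line reached the lowest library of the other states. With doxycycline Foxa3 fell by 1.37 ± 0.09 in the control line (0.387-fold, limma adjusted p = 1.02e-09) and by 1.90 ± 0.09 in the hairpin line (0.269-fold, limma adjusted p = 4.82e-12). On restoration it rose by 1.40 ± 0.09 and by 2.38 ± 0.09 (limma adjusted p = 4.82e-10 and 3.52e-13). The restored control line was back at its untreated level (0.04 ± 0.09, limma adjusted p = 0.770), and the restored hairpin line was 0.48 ± 0.09 above its own (limma adjusted p = 0.000310). Between the lines Foxa3 differed by 0.31 ± 0.09 untreated (limma adjusted p = 0.00644), −0.21 ± 0.09 with doxycycline (limma adjusted p = 0.0607) and 0.76 ± 0.09 restored (limma adjusted p = 2.02e-06). Without the third doxycycline library of the hairpin line the middle value was −0.32 and passed the test (limma adjusted p = 0.00687). The control line thus shared the doxycycline response of Foxa3.

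Calls were common in the inducible lines, so the members were read against all genes. Between the lines 3 of 4 members were called in each state, where 65.3% of all 9877 genes tested were called untreated, 52.4% with doxycycline and 57.9% restored. For doxycycline against untreated, 2 of 4 members were called in the control line and 4 of 4 in the hairpin line (background 66.5% and 74.2%). For restored against doxycycline 3 of 4 were called in each line (73.7% in the control line and 72.2% in the hairpin line). For restored against untreated, Foxa1 alone was called in the control line and 3 of 4 in the hairpin line (49.9% and 52.3%). With so many genes called, the sizes place the members better than the counts. With doxycycline 3.82% of genes tested differed more between the lines than Falcor and 3.91% more than Foxa1, against 49.4% for Foxa3 and 58.1% for Foxa2. The doxycycline change of Foxa3 was exceeded by 2.39% of genes in the control line and 2.10% in the hairpin line.

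Whether the hairpin difference itself changed between states was tested as an interaction. From untreated to doxycycline the difference changed by −1.53 ± 0.20 for Falcor, 0.77 ± 0.14 for Foxa1, 0.32 ± 0.05 for Foxa2 and −0.53 ± 0.13 for Foxa3 (limma adjusted p = 4.27e-06, 0.000134, 2.73e-05 and 0.00190), 4 of 4 called against a background of 64.9%. Foxa2 lost that call without rescaling (0.12, adjusted p = 0.0590). Between doxycycline and restored the difference changed for Falcor and Foxa3 (−1.64 ± 0.20 and −0.97 ± 0.13, doxycycline minus restored, limma adjusted p = 2.56e-06 and 6.40e-06), with 60.5% of genes called. The corresponding values for Foxa1 and Foxa2 were −0.24 ± 0.14 and 0.10 ± 0.05 (limma adjusted p = 0.149 and 0.0764). From untreated to restored, 3 of 4 members were called where 19.8% of genes were. Foxa1 gained 1.02 ± 0.14, Foxa2 0.21 ± 0.05 and Foxa3 0.45 ± 0.13 (limma adjusted p = 6.17e-05, 0.00545 and 0.0218), while Falcor changed by 0.10 ± 0.20 (limma adjusted p = 0.768). The Foxa3 call was lost without 1 of 4 libraries in turn, replicates 1 and 2 of the untreated hairpin line, replicate 2 of the restored control line and replicate 1 of the restored hairpin line, with values of 0.38 to 0.42 (adjusted p = 0.0532 to 0.0652).

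With conventional hairpins Foxa2 fell under the Falcor hairpin and not detectably under the ZC3H11A hairpin. Foxa2 counts were 796, 518 and 628 in controls, 219, 150 and 323 under the Falcor hairpin and 705, 419 and 656 under the ZC3H11A hairpin. In CPM these were 92.2, 93.1 and 103 in controls, 35.7, 31.4 and 35.5 under the Falcor hairpin, and 98.1, 92.5 and 119 under the ZC3H11A hairpin. Every Falcor hairpin library lay below every other library, and ZC3H11A hairpin libraries overlapped the controls. The Foxa2 change was −1.48 ± 0.10 under the Falcor hairpin (0.358-fold, edgeR adjusted p = 1.89e-09) and 0.11 ± 0.10 under the ZC3H11A hairpin (edgeR adjusted p = 0.386, 95% confidence interval −0.10 to 0.31). The direct comparison of the hairpins gave −1.59 ± 0.10 for Foxa2 (edgeR adjusted p = 5.01e-10). Leaving out each library in turn kept the Falcor hairpin value between −1.52 and −1.43. Falcor was lower than in controls in the doxycycline-treated inducible line and under the conventional Falcor hairpin, with Foxa2 values of 0.17 and −1.48 side by side. No test joined the experiments. Of 7 macrophage markers only Cd68 passed the filter on low counts. Their sum was 47.9 to 50.6 CPM under the Falcor hairpin, 3.44 to 5.21 in controls and 5.09 to 8.83 under the ZC3H11A hairpin. Cd68 carried this sum (3.65 ± 0.20 under the Falcor hairpin, edgeR adjusted p = 9.28e-11), while the other defining markers Adgre1, Clec4f, Vsig4, Timd4 and Marco were at 0 in controls and under the Falcor hairpin. The part of this difference in the Foxa2 value was not tested.

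Foxa3, by contrast, was low under the ZC3H11A hairpin. Its counts were 84, 75 and 65 in controls, 59, 62 and 116 under the Falcor hairpin and 19, 22 and 26 under the ZC3H11A hairpin. These are 11.3 ± 1.95, 11.8 ± 1.88 and 4.07 ± 1.24 CPM (mean ± SD, n = 3 each), and the ZC3H11A hairpin libraries lay below all others. Foxa3 fell by 1.49 ± 0.26 under the ZC3H11A hairpin (0.355-fold, edgeR adjusted p = 0.000130) and changed by 0.07 ± 0.23 under the Falcor hairpin (edgeR adjusted p = 0.824, 95% confidence interval −0.41 to 0.55). The hairpins differed by 1.56 ± 0.26 for Foxa3, Falcor minus ZC3H11A (edgeR adjusted p = 5.70e-05). Foxa1 was scarce, at 17, 12 and 4 counts in controls, 10, 9 and 17 under the Falcor hairpin and 4, 1 and 6 under the ZC3H11A hairpin. Its changes of 0.16 ± 0.54 and −1.31 ± 0.63 did not pass the test (edgeR adjusted p = 0.829 and 0.0958), and the third control library, at 0.656 CPM, overlapped the ZC3H11A hairpin group. Without that library the Foxa1 change under the ZC3H11A hairpin was −1.66 and passed (edgeR adjusted p = 0.0441). Foxa1 reached the filter minimum of 1.70 CPM in 5 libraries, 2 of them controls, and in no ZC3H11A hairpin library. These p-values under the ZC3H11A hairpin thus belong to a gene kept by the groups where it was high. With all libraries and no filter the change was −1.32 (edgeR adjusted p = 0.201). Under each hairpin 1 of 3 Foxa genes was called, Foxa2 or Foxa3, against 51.5% and 48.5% of 11871 genes tested, and Falcor is not counted because it passed the filter only through the controls. Foxa1 stays among the 3, uncalled, with the limit given above. In the direct comparison of the hairpins 2 of 3 were called against 56.9%. Both knockdowns were compared with the same 3 control libraries.

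**Figure D3:**
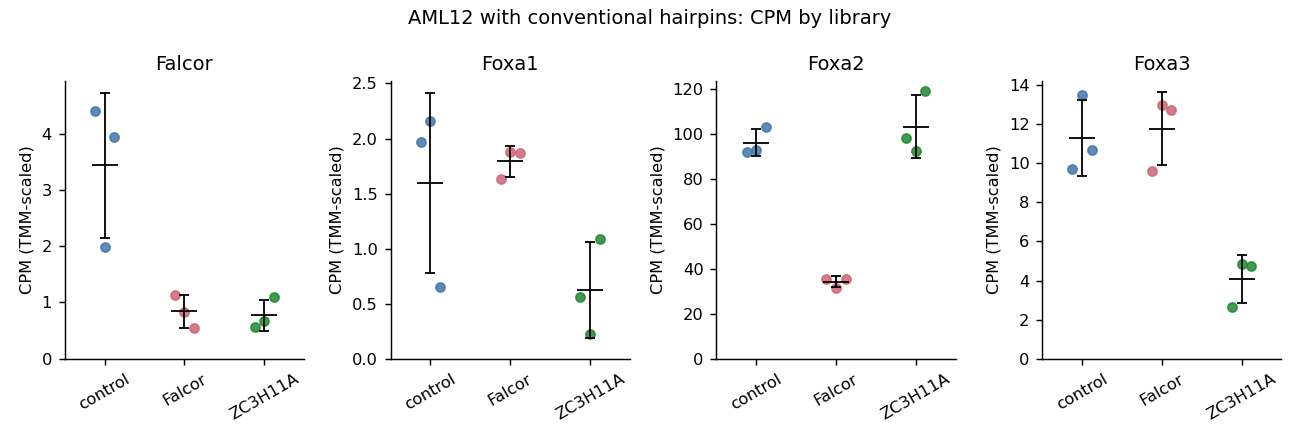
TMM-scaled CPM of Falcor, Foxa1, Foxa2 and Foxa3 in AML12 with a conventional control, Falcor or ZC3H11A hairpin, 1 point per library with mean ± SD (n = 3). Foxa2 sits at 31.4 to 35.7 under the Falcor hairpin and Foxa3 at 2.64 to 4.86 under the ZC3H11A hairpin, each below all other libraries.

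Per length, Foxa2 stood far above the other members in AML12. In conventional controls, levels in CPM per kb of merged exon were 39.2 ± 2.75 for Foxa2, 5.34 ± 0.826 for Foxa3, 1.98 ± 0.766 for Falcor and 0.461 ± 0.234 for Foxa1 (mean ± SD, n = 3). Ranges of neighbours in this order did not overlap, the closest being Falcor at 1.11 to 2.56 and Foxa1 at 0.192 to 0.613. The order held under the Falcor hairpin for Foxa2 (15.4 ± 1.14) and Foxa3 (6.19 ± 1.08), while Falcor (0.533 ± 0.177) and Foxa1 (0.577 ± 0.0554) overlapped.

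In liver none of the 3 Foxa genes passed the test in the knockouts. On NCD, deposited Foxa2 values were 11, 21, 20 and 20 in controls and 20, 19, 13 and 18 in knockouts, which overlapped. Foxa2 changed by −0.20 ± 0.22 (limma adjusted p = 0.573, 95% confidence interval −0.69 to 0.30). Foxa1 values were 4, 10, 10 and 6 in controls and 6, 4, 5 and 6 in knockouts, a change of −0.54 ± 0.25 (limma adjusted p = 0.180). Foxa3 values were 27, 37, 36 and 28 in controls and 20, 23, 34 and 23 in knockouts, with 3 of 4 knockout libraries below every control. Its change of −0.54 ± 0.14 missed the threshold (limma adjusted p = 0.0548) and passed without the control library named Ctrl-5 (−0.62, limma adjusted p = 0.0333). Thus 0 of 3 Foxa genes were called on NCD against 5.98% of 9536 genes tested, and Foxa3 was the only one with an unadjusted p below 0.05 (limma, 0.00439). That background is unstable, since 570 calls became 1707 without Ctrl-5 and 6 to 32 without any 1 of the other 7 libraries.

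On HFD the Foxa genes were low and spread widely. Foxa2 was at 4, 4, 5, 7 and 7 in controls and at 1 to 14 in knockouts (median 8), with the lowest value in KO-6. Foxa2 changed by 0.24 ± 0.35 (limma adjusted p = 0.823, 95% confidence interval −0.54 to 1.01) and by 0.47 ± 0.29 without KO-6 (limma adjusted p = 0.527). Foxa1 was at 2, 3, 3, 4 and 5 in controls and at 1 to 5 in knockouts (median 3), a change of −0.15 ± 0.20 (limma adjusted p = 0.796), or −0.12 ± 0.22 without KO-6. Foxa3 was at 10, 10, 14, 20 and 21 in controls and at 4 to 26 in knockouts (median 18.5), a change of 0.14 ± 0.28 (limma adjusted p = 0.869), or 0.28 ± 0.27 without KO-6. The groups overlapped for all 3 Foxa genes, and 0 of 3 were called against 0.0486% of 6176 genes, 3 in all. None of the 3 had an unadjusted p below 0.05 on HFD, and without KO-6 the count over all genes was 1. The knockout effects on the diets differed by 0.39 ± 0.32 for Foxa1, 0.43 ± 0.41 for Foxa2 and 0.68 ± 0.31 for Foxa3, HFD minus NCD (limma estimates, adjusted p = 0.438, 0.509 and 0.159), 0 of 3 called against 7.13%, with Foxa3 alone at an unadjusted p below 0.05 (0.0440).

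**Figure D4:**
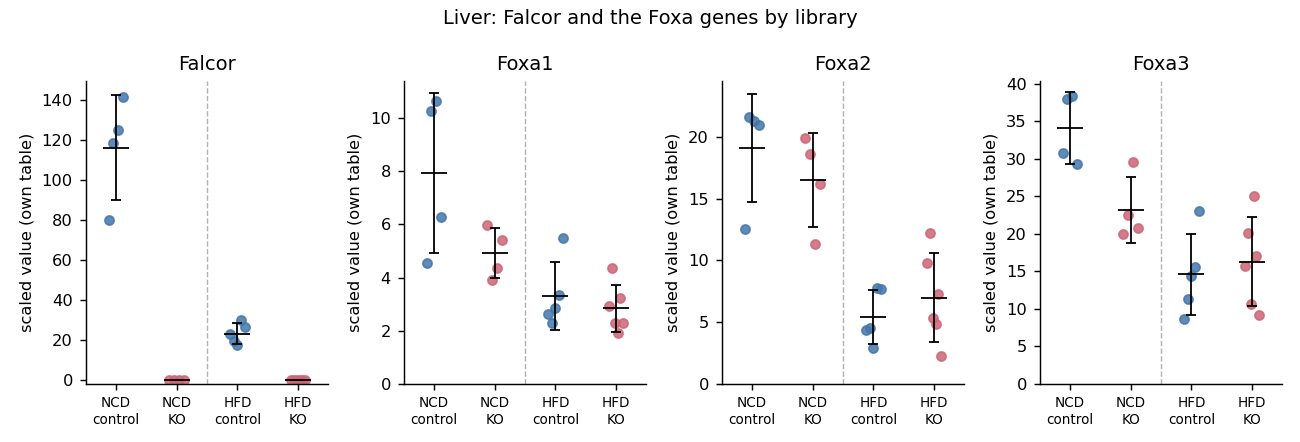
Scaled values of Falcor, Foxa1, Foxa2 and Foxa3 in control (blue) and Falcor knockout (red) liver, 1 point per library with mean ± SD, NCD (n = 4 and 4) left and HFD (n = 5 and 6) right of the dashed line; each diet was scaled within its own table, so levels are not compared across the line. Falcor is at 0 in all knockout libraries, and the Foxa genes overlap between groups.

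The ratio of Falcor to Foxa2 within a library does not depend on scaling and set AML12 apart from liver. In deposited values Falcor over Foxa2 was 0.0635 to 0.0968 in the inducible control line, 0.125 to 0.197 in the untreated and restored Falcor hairpin line, and 0.0339 to 0.05 in that line with doxycycline. In liver controls it was 5.48 to 6.75 on NCD and 3.43 to 6 on HFD. All 9 liver controls thus lay above all 18 inducible AML12 libraries. Foxa3 over Foxa2 was 0.0508 to 0.338 in the inducible lines, 1.40 to 2.45 in NCD controls and 2 to 5 in HFD controls. These ratios compare libraries, and since the unit of the tables is not stated they do not say which gene is more abundant. In bulk RNA, fewer cells of a type and less RNA per cell cannot be told apart.

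**Figure D5:**
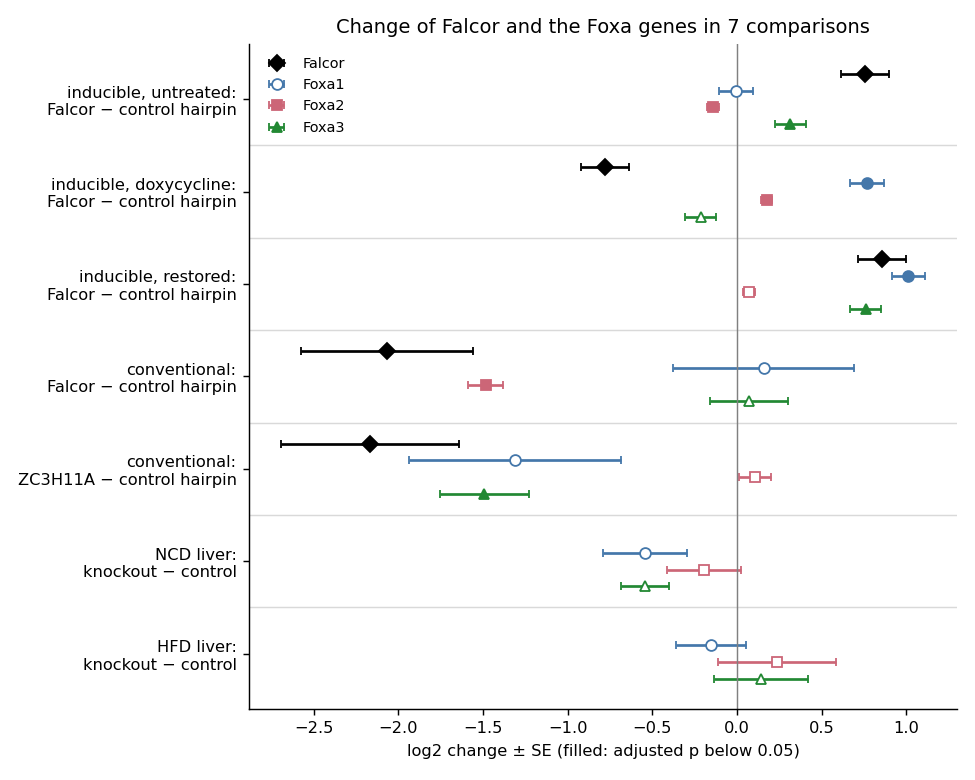
Log2 change ± SE of Falcor, Foxa1, Foxa2 and Foxa3 in 7 comparisons (limma for the inducible lines and liver, edgeR for the conventional hairpins); filled symbols have an adjusted p below 0.05, and Falcor is left out of the liver rows because it is at 0 in the knockouts. Foxa2 lies near 0 except under the conventional Falcor hairpin (−1.48), and among these 7 comparisons Foxa3 is lowest under the conventional ZC3H11A hairpin (−1.49).

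Genes known as targets of FOXA factors in liver were examined from a list of 18, of which 7 were tested in the inducible lines, 10 with conventional hairpins and 15 in each liver table. Of all genes tested, 25.4% were called higher and 27.0% lower with doxycycline between the inducible lines, 30.2% and 35.1% untreated, 25.5% and 26.0% under the conventional Falcor hairpin, 24.2% and 24.3% under the ZC3H11A hairpin, and 4.16% and 1.81% in NCD knockouts. With doxycycline 5 of 7 targets were lower and 1 higher in the Falcor hairpin line, with a median of −0.68 beside 0.00 over all genes. Albumin (Alb) differed by −1.42 ± 0.04, transthyretin (Ttr) by −0.68 ± 0.04 and Cpt1a, the carnitine acyltransferase of fatty acid oxidation, by −0.51 ± 0.08 (limma adjusted p = 1.23e-13, 1.37e-09 and 2.88e-05). Untreated, 5 of 7 were higher and 2 lower (median 0.80 beside −0.01). Ttr was then at 1.34 ± 0.04 and Alb at −0.50 ± 0.04 (limma adjusted p = 1.00e-13 and 1.58e-08). Under the conventional Falcor hairpin 7 of 10 fell and 2 rose (median −2.38 beside 0.00), among them Ttr at −5.29 ± 0.32 and Alb at −2.35 ± 0.14 (edgeR adjusted p = 1.60e-06 and 2.39e-10). Under the ZC3H11A hairpin 5 of 10 fell and 4 rose (median −0.80 beside 0.00), with Apob, the lipoprotein backbone, at 1.48 ± 0.10 (edgeR adjusted p = 9.66e-09). In NCD knockouts 2 of 15 were higher, Cpt1a by 0.43 ± 0.09 and Apob by 0.51 ± 0.12 (limma adjusted p = 0.0379 and 0.0460), and on HFD limma called 0 of 15, with 2 at an unadjusted p below 0.05.

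Transcription factors that act beside FOXA numbered 15, with 13 tested in each AML12 table, 14 on NCD and 12 on HFD. With doxycycline 2 of 13 were higher and 3 lower in the Falcor hairpin line (median −0.08), shares below the 25.4% and 27.0% of all genes. Among them were Onecut2 at −1.07 ± 0.10, Hnf4a at −0.35 ± 0.06 and the bile acid receptor Nr1h4 at −0.27 ± 0.04 (limma adjusted p = 2.07e-07, 0.000160 and 2.06e-05). Untreated, 11 of 13 were higher and 1, Cebpb, was lower (median 0.45, against 30.2% and 35.1% of all genes). The conventional Falcor hairpin lowered 10 of 13 and raised 1 (median −0.75, against 26.0% and 25.5% of all genes), with Hnf4a at −1.07 ± 0.08 and Ppara at −1.10 ± 0.10 (edgeR adjusted p = 4.27e-09 and 5.23e-08). The ZC3H11A hairpin lowered 6 and raised 1 (24.3% and 24.2% of all genes), the latter Hnf4a, by 0.68 ± 0.07 (edgeR adjusted p = 6.01e-07). On NCD 1 of 14 was called (5.98% of all genes), Ppara at 0.64 ± 0.09 (limma adjusted p = 0.0314), and limma called 0 of 12 on HFD, with 2 at an unadjusted p below 0.05. The sum of hepatocyte markers differed between these groups. In the inducible lines it was 556 to 620 in the untreated control line and 1206 to 1262 in the untreated hairpin line. With doxycycline it was 719 to 746 against 446 to 457, and restored 677 to 695 against 1386 to 1430. Ttr carried most of this sum, with a mean of 700 beside 96.2 for Fah and 49.9 for Alb. With conventional hairpins the sum was 285 to 334 CPM in controls, 119 to 123 under the Falcor hairpin and 152 to 227 under the ZC3H11A hairpin. The members of the sum did not all move its way: untreated, Ttr was at 1.34 and Alb at −0.50 in the inducible lines, and under the ZC3H11A hairpin Apoa1, the main HDL protein, rose by 2.87 ± 0.35 while Alb and Ttr were at −1.30 and −1.48 (edgeR adjusted p = 6.92e-05, 1.98e-07 and 0.000727). Restored, the inducible lines differed by 1.23 for Ttr, 0.07 for Alb and −0.16 for Fah. Alb and Ttr belong to both lists. The part of these marker differences in the Foxa values was not tested.

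Genes of the wider region around Falcor on chromosome 2 were taken as a list of 16 that includes Foxa2. Many are far from it: Nxt1 starts at 626 kb and Cst3 at 825 kb from the Foxa2 start. Xrn2 ends at −969 kb, on the side of Falcor. Ralgapa2 and Kiz are not among the genes mapped within 1000 kb of Foxa2. With conventional hairpins 8 were tested, of which 4 fell and 1 rose under the Falcor hairpin, beside 26.0% and 25.5% of all genes. Scaled by library size only, 3 fell and 1 rose. Foxa2 had the largest change of these, before Ralgapa2 (−0.96 ± 0.08) and Kiz (−0.88 ± 0.20), while Gzf1 rose by 0.31 ± 0.08 (edgeR adjusted p = 2.13e-08, 0.00153 and 0.00263). Under the ZC3H11A hairpin Ralgapa2 rose by 0.64 ± 0.08 and Cst3, the secreted protease inhibitor cystatin C, fell by 1.23 ± 0.09 (edgeR adjusted p = 1.97e-06 and 1.84e-09). In the inducible lines with doxycycline 3 of 7 tested genes of this list were higher and 2 lower in the Falcor hairpin line, beside 25.4% and 27.0% of all genes. Foxa2 was 1 of the 3 higher. Nxt1 was at 0.28 ± 0.06 and Kiz at −0.44 ± 0.10 (limma adjusted p = 0.000553 and 0.00127). Untreated, 4 of 7 were higher and 3 lower (4 and 2 without rescaling), beside 30.2% and 35.1% of all genes. In NCD knockouts 1 of 6 was called, Xrn2, the nuclear exoribonuclease, at 0.43 ± 0.09 (limma adjusted p = 0.0389), and on HFD limma called 0 of 5, with 0 at an unadjusted p below 0.05.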

How the data were processed

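RNA sequencing of 46 libraries was used from 4 deposited tables. Per the labels, ribosomal RNA was removed and the libraries kept strand. Per the submitters' processing notes, kallisto, DESeq2 and mm10 were used, without versions or roles. The annotation release is not given in the sources used here. Values of the conventional table are counts deposited by the authors, tested with edgeR 4.0.16 (filterByExpr with a minimum count of 10, TMM, robust quasi-likelihood test). The other 3 tables hold values deposited by the authors and treated here as a score: whole numbers with columns summing to 859568 to 883564 (inducible), 833910 to 872375 (NCD) and 918867 to 975752 (HFD), of unknown depth. They were divided by TMM factors, and log2(value + 1) of genes with a mean of at least 3 was fitted with limma 3.58.1 (trend, robust) in R 4.3.3. A log2 change on this scale, and the fold taken from it, understates the change of low genes. All groups of a table shared 1 fit, and the diet comparison set the separate estimates of both tables against each other with Welch-Satterthwaite degrees of freedom. P-values were adjusted by Benjamini-Hochberg over all genes of a comparison, with a threshold of 0.05.

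The 4 genes, the gene lists and the tests were chosen with earlier results of these data known. Members of a list could be named when called and among the 4 smallest p of a comparison; Cd68 was named after its values were seen. Some list members are counted and not reported here by name. For 4 liver control columns the name fits several labels, so they entered their group without a replicate number. Replicate numbers gave no steady pairing of libraries: correlations of equal numbers ranged from −0.21 to 0.30, and no comparison had all 3 above 0.1. Libraries were closest to their own number in 3 of 3 pairs for restored against untreated in the Falcor hairpin line. The same held for the ZC3H11A hairpin against control, and it held in 0 of 3 for restored against doxycycline in the control line. The main fits used no pairing. On simulated data with 2-fold changes, the fits recovered 99% of changed genes for the inducible lines with doxycycline (9762 genes), 75.5% for the conventional Falcor hairpin (11608), 83% for NCD (9313) and 85% for HFD (5883). With 1.5-fold changes they recovered 92%, 52.5%, 53% and 66%, and 5.91 to 8.48% of calls were false. At each size 98 to 100 of the fitted genes were changed, and the rest had no difference. In the real data 52.4% of genes were called in this inducible comparison and 51.5% under the conventional Falcor hairpin. Recovery and false calls with so many changes were not simulated. Changed genes were drawn only from rows with a mean of at least 2 times the minimum of 3. Recovery of lower genes, such as Foxa1 on HFD with a mean of 3.06, was therefore not simulated. Gene positions came from GENCODE vM21, start regions from RefSeq.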

Additional observations from a re-analysis of the deposited data

Results flagged for a closer look

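One library value of a Foxa gene stood apart from its group. Foxa2 was at a scaled value of 12.5 in the NCD control library named Ctrl-2, against 21.0 to 21.6 in the other 3 NCD controls. Among 14 combinations of gene and liver group with 4 to 10 libraries, 1 stood out, and chance alone gives about 1 in 20.

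The hairpin difference changed between states in 9 cases, each by the limma interaction test. From untreated to doxycycline it changed by −1.53 for Falcor (9030622O22Rik), 0.77 for Foxa1, 0.32 for Foxa2 and −0.53 for Foxa3. Between restored and doxycycline it changed by −1.64 for Falcor and −0.97 for Foxa3. From untreated to restored it changed by 1.02 for Foxa1, 0.21 for Foxa2 and 0.45 for Foxa3.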

How the results depend on the processing

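Of 1123 values under alternative settings, 1059 held: changes of the members kept their direction and their side of the threshold, and counts of called genes stayed within 1.5 times. Without rescaling of the deposited values, all-gene medians shifted by up to 0.24, and Foxa1 untreated turned to 0.17, Foxa2 untreated to 0.0457, Foxa2 with doxycycline against untreated in the Falcor hairpin line to −0.0847, Foxa1 restored against doxycycline in that line to 0.0583, the Foxa2 doxycycline minus restored difference to −0.0587 and Falcor restored against doxycycline in the control line to 0. In the same setting Foxa2 restored reached 0.23, the Foxa2 doxycycline minus untreated difference weakened to 0.12, the Foxa1 doxycycline minus restored difference reached −0.40, and the counts of called genes were 1746 on NCD, 29 on HFD and 51 for the diet difference, against 570, 3 and 437. The count on HFD was 12 without a filter and 16 without 5 abundant noncoding rows, a setting chosen after seeing the data. With only the groups compared, Foxa1 restored against doxycycline in the hairpin line passed at −0.12, and with library size only Foxa1 passed between the conventional hairpins at 1.63. No ZC3H11A hairpin library reached the filter minimum for Foxa1.

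With a replicate block, Foxa3 with doxycycline passed at −0.21 (adjusted p = 0.0409). Over the numbers that both liver groups share, the block gave 8 called genes on NCD, and −0.0108 for Foxa2 and −0.0858 for Foxa3 on HFD. The block changed no other call, and no cause was tested.

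Leaving out 1 library at a time gave these ranges. In the inducible lines Foxa1 untreated ran from −0.0776 to 0.0667, Foxa3 with doxycycline from −0.32 to −0.16, Foxa1 doxycycline minus restored from −0.37 to −0.15 and Foxa3 restored minus untreated (difference of hairpins) from 0.38 to 0.53. Foxa3 restored against untreated in the control line ran from −0.0504 to 0.11. Falcor ran from −0.15 to 0.0439 (doxycycline), −0.10 to 0.0752 (restored against doxycycline) and −0.16 to 0.0291 (restored against untreated) in the control line and from −0.0609 to 0.15 (restored against untreated) in the hairpin line. With conventional hairpins Foxa1 ran from −0.20 to 0.39 (Falcor), −1.89 to −0.98 (ZC3H11A) and 1.14 to 2.05 (between them), Foxa3 from −0.0370 to 0.21 (Falcor), Foxa2 from −0.00434 to 0.18 (ZC3H11A) and Falcor from −0.19 to 0.43 (between them). In liver Foxa3 ran from −0.69 to −0.49 on NCD and −0.0145 to 0.31 on HFD, Foxa1 from −0.26 to 0.00473 on HFD, and called genes from 6 to 1707 on NCD and 1 to 8 on HFD. Falcor counts of 3 to 7 under the conventional hairpins and Foxa1 counts of 1 to 17 limit what that table can show, and unknown depth limits the others.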

Other observations

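The other forkhead genes, a list of 30, were mostly low, with 15 tested in the inducible lines, 16 with conventional hairpins, 10 on NCD and 9 on HFD. With doxycycline 5 of 15 were higher and 4 lower in the Falcor hairpin line, near the 25.4% and 27.0% of all genes tested, with the ciliogenesis factor Foxj1 at 0.44 ± 0.05 (limma adjusted p = 5.37e-07). Under the conventional Falcor hairpin 5 of 16 rose and 5 fell, near the 25.5% and 26.0% of all genes. Foxq1 fell by 1.73 ± 0.09 and Foxn2 by 1.51 ± 0.19, beside 1.48 ± 0.10 for Foxa2 (edgeR adjusted p = 6.12e-11, 4.04e-06 and 1.89e-09). Foxo3, a target of insulin signalling, fell by 0.70 ± 0.06 under the Falcor hairpin and by 0.74 ± 0.06 under the ZC3H11A hairpin, comparisons that share their controls (edgeR adjusted p = 3.34e-08 and 1.71e-08). In liver limma called 0 of 10 on NCD and 0 of 9 on HFD, with 3 and 1 at an unadjusted p below 0.05.

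Genes whose pattern was most like that of a member are given as a description, by Pearson's r of log2(scaled value + 1) among genes with a mean of at least 10. Over the 18 inducible libraries, which fall into 6 groups, Falcor was closest to Slc37a3 (0.96), Cpt1a (0.95) and Myo15b (0.94), Foxa1 to Marcksl1 (0.87), Grb2 (0.85) and Cotl1 (0.83), Foxa2 to Arf5 (0.92), Dpp3 (0.91) and Nudt16l1 (0.91), and Foxa3 to Slc9a3r1 (0.99), Entpd2 (0.99) and Gsta3 (0.98). Over the 11 HFD livers Foxa1 was closest to Ces3b (0.89), Foxa2 to Atp6v1f (0.83) and Foxa3 to Bzw1 (0.94). The candidates numbered 6704 or 6705 in the inducible lines and 2187 or 2188 on HFD, where KO-6 was included. The highest r among so many candidates was not tested against chance. Libraries of a group share their treatment.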
